A study of Mus musculus with 16 samples.

Results

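BMP ligands and BMP antagonists were followed here as 8 genes, the ligands Bmp2, Bmp4, Bmp5 and Bmp7 and the antagonists Nog, Chrd, Bambi and Fst, out of 19938 genes with a probe set of their own on the array. The 8 were listed by name, and each was read from the probe set that carries its symbol alone (1 probe set per gene). The data are 16 Affymetrix Mouse Gene ST 1.0 arrays, 2 biological replicates in each of 8 groups. All groups come from 1 mouse embryonic stem cell (mESC) line with a GFP reporter in 1 allele of T, a mesoderm factor, and a tagRFP reporter in 1 allele of Foxa2, an endoderm factor (TGFP/+; Foxa2tagRFP/+). The sample labels name the line E14.1 on a 129/Ola background and the methods name it G4.

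Undifferentiated mESCs (ES, day 0) were grown on fibroblast feeders with leukaemia inhibitory factor and were not sorted. Endoderm was induced on Wnt3a-expressing feeders with activin A (12 ng ml−1). From this culture Foxa2+ T- cells were sorted with low CD24, a surface glycoprotein (definitive endoderm progenitors, DEP), and with high CD24 (definitive endoderm, DE), each on days 2 and 4. For mesoderm, Bmp4 protein (7.5 ng ml−1) and activin A (3 ng ml−1) went into that medium, again on Wnt3a feeders, and it is not stated whether this activin A replaced or joined the 12 ng ml−1. From it Foxa2- T+ cells were sorted with low CD24 on days 2 and 4 (mesoderm progenitors, MP) and without CD24 on day 4 (mesoderm, MES). The names DEP and MP are those of the study, and the labels call both endoderm gates definitive endoderm and both mesoderm gates mesoderm. Bmp4 protein was added to the mesoderm medium alone, so that in any endoderm-to-mesoderm comparison the lineage and its medium cannot be told apart.

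Bone morphogenetic proteins (BMPs) are secreted dimers of the TGF-β family that bind type I and type II receptor kinases and signal through Smad1, Smad5 and Smad9. Bmp2 and Bmp4 form one closely related subgroup and Bmp5 and Bmp7 another. Noggin (Nog) and chordin (Chrd) bind the ligands outside the cell and keep them from their receptors, follistatin (Fst) binds activin with high affinity and also some BMPs, and Bambi is a membrane protein that resembles a type I receptor without its kinase. In the gastrulating mouse embryo Bmp4 from the extra-embryonic ectoderm is needed for mesoderm, and chordin and noggin are made by the organizer region and the tissues derived from it.

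All values are log2 robust multichip average (RMA) values as the authors deposited them, and differences are log2 fold changes from 1 limma model that gives each group its own mean over the 32000 probe sets of highest mean. A gene was called, the only case in which words such as rose, fell, higher and lower are used of a difference between groups, where the absolute log2 fold change was above 1 and the Benjamini–Hochberg adjusted p over the 32000 was below 0.05. All 8 genes were among the 32000. Where the groups are put in order of a gene's mean, neighbours are said to differ at an adjusted p below 0.05 alone, whatever the size of the step. The labels call the replicates biological but do not say that they came from separate cultures, so the p-values measure the spread between these arrays, and 2 arrays per group limit the precision. In RNA from a bulk population, fewer cells that express a gene and less of its RNA per cell cannot be told apart.

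DE and MES carried all of their markers and the progenitor groups a part. Of 12 definitive endoderm markers, Foxa2 among them, 12 were higher in DE of day 2 and of day 4 than in ES. On days 2 and 4, 6 and 9 were higher in DEP and 4 and 5 in MP, and 5 were higher in MES. Of 12 mesoderm markers 12 were higher in MES than in ES, and 6 in MP of either day. The shares of all probe sets called against ES on days 2 and 4 were 6.65% and 8.76% in DE, 3.64% and 4.51% in DEP and 4.1% and 5.46% in MP, and 5.67% in MES. Foxa2, a sorted gene, lay between 10.00 and 11.41 on the 8 endoderm arrays and between 7.32 and 8.26 on the other 8, and T mRNA was not analysed here. Fibroblast markers stood out on the unsorted ES arrays, where the mean over 21 of them was 9.59 and 9.97 against 7.08 to 7.67 on the sorted arrays, and 13 to 17 of the 21 were lower in each sorted group than in ES. The replicates of DE of day 2 stood apart from each other. On replicate 2 the mean of the fibroblast markers was 7.62 (7.11 on replicate 1), that of 15 BMP target genes 8.33 (7.92) and that of 11 visceral endoderm markers 7.46 (7.01). In DE of day 4 the visceral endoderm markers were on average at 8.33 and 8.29. Of the 11 markers, 5 were higher and 1 lower there than in ES, and 4 were higher and 0 lower than in MES. Their part in the values of DE was not tested.

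For 3 of the 8 genes a window was taken from the RefSeq promoter table of GRCm38.p6 (Bmp4, Bmp5 and Chrd). The selection skipped the entries of a single chromosome, so it does not count all members with an entry. The 250 bases before the start sites of Bmp4 and Chrd are shown because the 2 genes lay on opposite sides in every endoderm-to-mesoderm comparison below. Bmp4 lies at chr14:46390670-46390919 on the minus strand and Chrd at chr16:20732877-20733126 on the plus strand, both written 5′ to 3′ along the gene. Capitals mark GGCGCC, a GC-rich Smad motif.
Bmp4: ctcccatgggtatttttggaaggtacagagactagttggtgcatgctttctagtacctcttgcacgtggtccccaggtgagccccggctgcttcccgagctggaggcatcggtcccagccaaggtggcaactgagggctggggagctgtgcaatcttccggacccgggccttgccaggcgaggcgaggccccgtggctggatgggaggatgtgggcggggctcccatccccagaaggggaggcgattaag
Chrd: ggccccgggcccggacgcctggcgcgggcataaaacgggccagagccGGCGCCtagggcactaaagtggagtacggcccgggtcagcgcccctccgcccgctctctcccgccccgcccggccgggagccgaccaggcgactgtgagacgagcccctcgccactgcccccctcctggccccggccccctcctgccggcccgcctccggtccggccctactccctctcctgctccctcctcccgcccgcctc
The motifs searched on both strands were GGCGCC, the forkhead motif TGTTTAC and the T-box motif AGGTGTGA, none of which overlaps another. GGCGCC was found 1 time in the Chrd window, starting 203 bases before the start site, and in 9.59% of the 32851 windows of all genes. No match for the other 2 motifs, which 3.17% and 1.12% of all windows hold, was in the windows of Bmp4, Bmp5 or Chrd. The windows differed in base composition, with 63.2% G and C in Bmp4, 42.8% in Bmp5 and 78.0% in Chrd against a median of 52.4%.

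Among the ligands, Bmp4 had the widest range of group means of the 8 genes. It was at 11.32 and 12.07 on the ES arrays, 7.85 and 8.28 in DEP of day 2, 8.01 and 8.21 in DEP of day 4, 7.75 and 8.89 in DE of day 2, 7.25 and 7.35 in DE of day 4, 9.58 and 9.51 in MP of day 2, 12.31 and 12.06 in MP of day 4 and 12.52 and 12.44 in MES. All 8 endoderm arrays lay below all MP, MES and ES arrays. By group mean MES, MP of day 4 and ES came first, with no difference found between neighbours among them. MP of day 2 came next and differed from ES above it and DE of day 2 below it (adjusted p = 0.00069 and 0.0221). The 4 endoderm groups came last, and no neighbours among them differed.

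Bmp2 had a different order, since it was high in the late cells of both lineages. Its values were 5.56 and 5.88 in ES, 8.18 and 7.99 in DEP of day 2, 8.13 and 8.78 in DEP of day 4, 9.27 and 9.44 in DE of day 2, 10.51 and 10.70 in DE of day 4, 6.66 and 6.71 in MP of day 2, 9.48 and 9.36 in MP of day 4 and 10.61 and 10.63 in MES. ES lay below all sorted arrays, and MES and DE of day 4 shared the top of the order without a detectable difference (adjusted p = 0.968). Between the next neighbours, MP of day 4 and DE of day 2, and between DEP of days 4 and 2, no difference was found (adjusted p = 0.878 and 0.675), and at the other 4 steps the adjusted p was below 0.05, with steps of 1.19 and 1.40 above the fold threshold and of 0.90 and 0.96 under it.

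Bmp7, a ligand of the Bmp5 subgroup, was lowest in ES, at 8.02 and 7.60. It was at 10.40 and 10.56 in DEP of day 2, 9.90 and 10.08 in DEP of day 4, 11.03 and 9.77 in DE of day 2, 8.65 and 8.71 in DE of day 4, 9.60 and 9.53 in MP of day 2, 11.21 and 11.17 in MP of day 4 and 10.96 and 10.95 in MES. Neighbours in its order differed between MP of day 2 and DE of day 4 (adjusted p = 0.0486) and between DE of day 4 and ES (adjusted p = 0.0418), and at no other step. Bmp5 had its highest values in MES and MP of day 4, with no detectable difference between any neighbours in its order. It was at 6.18 and 5.92 in ES, 6.17 and 6.33 in DEP of day 2, 6.81 and 6.86 in DEP of day 4, 6.48 and 8.18 in DE of day 2, 6.84 and 7.11 in DE of day 4, 6.23 and 6.39 in MP of day 2, 8.35 and 7.83 in MP of day 4 and 8.77 and 8.46 in MES. The replicates of DE of day 2 were 1.70 apart for Bmp5, 1.14 for Bmp4 and, in the opposite direction, 1.26 for Bmp7.

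Among the antagonists, Chrd was high in the endoderm groups alone. Its values were 7.21 and 7.37 in ES, 10.00 and 10.14 in DEP of day 2, 10.15 and 9.65 in DEP of day 4, 9.22 and 8.78 in DE of day 2, 8.48 and 8.41 in DE of day 4, 7.77 and 7.60 in MP of day 2, 7.41 and 7.57 in MP of day 4 and 7.21 and 7.35 in MES. All 8 endoderm arrays lay above all ES and mesoderm arrays. Neighbours in its order differed between DEP of day 4 and DE of day 2 (a step of 0.90, adjusted p = 0.00511) and between DE of day 4 and MP of day 2 (a step of 0.77, adjusted p = 0.0067), both steps under the fold threshold, and no other neighbours differed.

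Fst was highest in MP of day 2 and lowest in DE of day 4. It was at 9.61 and 10.22 in ES, 10.20 and 10.81 in DEP of day 2, 9.03 and 9.13 in DEP of day 4, 8.28 and 9.09 in DE of day 2, 7.38 and 7.46 in DE of day 4, 12.13 and 12.40 in MP of day 2, 10.53 and 10.78 in MP of day 4 and 10.44 and 10.90 in MES. Only the first step, from MP of day 2 to MES (adjusted p = 0.00572), and the last, from DE of day 2 to DE of day 4 (adjusted p = 0.0239), separated neighbours in the order.

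Bambi and Nog varied less. Bambi was at 8.61 and 8.65 in ES, 9.05 and 8.88 in DEP of day 2, 8.95 and 9.04 in DEP of day 4, 9.56 and 9.41 in DE of day 2, 9.65 and 9.71 in DE of day 4, 9.18 and 8.95 in MP of day 2, 9.94 and 9.70 in MP of day 4 and 10.10 and 10.02 in MES. The ES arrays were the lowest, and the step between DE of day 2 and MP of day 2 was the one that separated neighbours (adjusted p = 0.0262). Nog had group means within 0.67 of each other, from 7.21 and 7.27 in DEP of day 4 to 8.01 and 7.81 in DE of day 4, and its other 12 arrays lay between 7.23 and 7.57. No 2 of the 8 groups met both thresholds for Nog in any of the 28 pairs, against 22 pairs for Bmp2, 19 each for Bmp4 and Fst, 17 for Chrd, 14 for Bmp7, 9 for Bmp5 and 5 for Bambi. At an adjusted p below 0.05 alone Nog differed in 6 pairs and Bambi in 20. At that threshold Bmp2 differed in 25, Chrd in 20, Bmp4 and Fst in 19 each, Bmp7 in 16 and Bmp5 in 9.

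**Figure D1:**
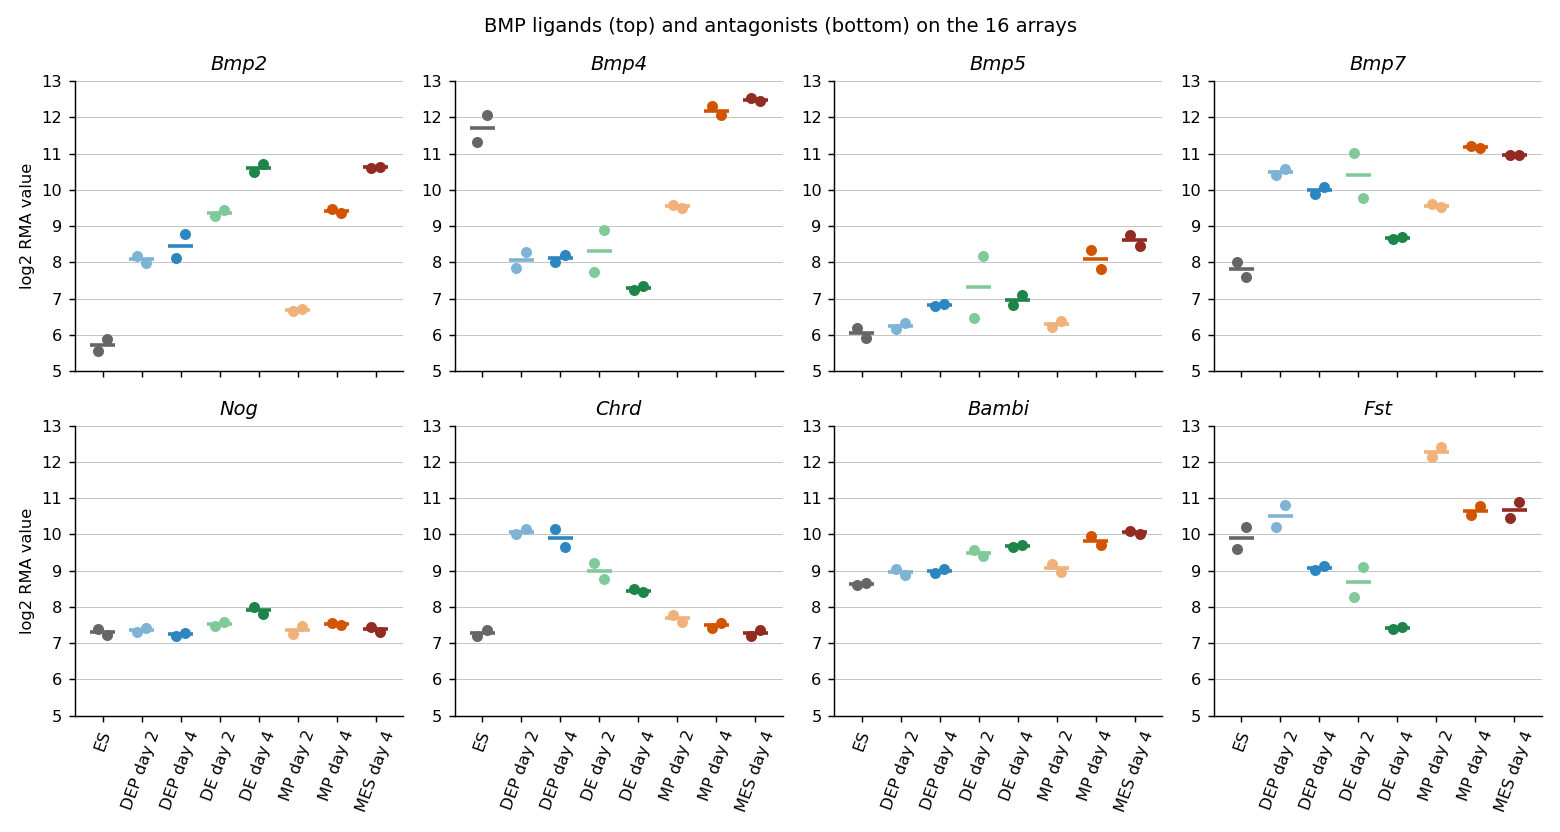
log2 RMA value (y axis, 5 to 13 in every panel) of each gene on the 16 arrays by group (x axis), with 1 point per array and a line at the mean of the 2 replicates. Chrd is at 8.41 or more on the 8 endoderm arrays alone, Bmp4 is at 9.51 or more on all ES and mesoderm arrays, and the panels show values of different probe sets, whose heights are not comparable between genes.

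The first question was how endoderm and mesoderm cells of like stage differed. On day 4, DE had less Bmp4 than MES (log2 fold change -5.18, 36.3-fold, standard error 0.32, adjusted p = 3.74e-07). Bmp7 (-2.27, adjusted p = 0.00015), Bmp5 (-1.64, adjusted p = 0.0112) and Fst (-3.25, adjusted p = 7.15e-06) were lower too, while Chrd was higher by 1.17 (standard error 0.17, adjusted p = 0.000414). Of the 8 genes 5 were called, 3 ligands and 1 antagonist lower and 1 antagonist higher, where 5.88% of all probe sets were called. The median over the 8 was -1.01, against 0.00 over all probe sets.

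For Bmp2 no difference between DE and MES was detected (-0.02, 95% interval -0.42 to 0.38, adjusted p = 0.968). Nog (0.52, adjusted p = 0.00431) and Bambi (-0.38, adjusted p = 0.0348) met the p threshold but not the fold threshold. The call of Bmp5 was lost without DE day 4 replicate 1 (-1.50, adjusted p = 0.0804) or MES replicate 1 (-1.49, adjusted p = 0.0742), and the other 4 calls held without any 1 of the 4 arrays. DE was sorted at high and MES without CD24, so this comparison changes the gate together with lineage and medium.

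DEP and MP were both sorted at low CD24, each from its own culture. The mean mRNA value of Cd24a, the gene of CD24, was 12.61 in DEP and 12.46 in MP on day 2. On day 4 it was 12.95 in DEP and 12.39 in MP. On day 2, DEP had more Chrd (2.39, standard error 0.17, adjusted p = 1.87e-05) and more Bmp2 (1.40, adjusted p = 0.00178) than MP, and less Fst (-1.76, adjusted p = 0.0068) and less Bmp4 (-1.48, adjusted p = 0.0324). These 4 of 8 calls stand beside 0.903% of all probe sets. Bmp7 was at 0.91 (adjusted p = 0.181), Bmp5 at -0.06, Nog at 0.00 and Bambi at -0.10. The call of Bmp4 was lost without any 1 of the 4 arrays (-1.26 to -1.70, adjusted p between 0.0761 and 0.279), and that of Fst without DEP day 2 replicate 1 (-1.45, adjusted p = 0.0894) or MP day 2 replicate 2 (-1.63, adjusted p = 0.0841).

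On day 4 the difference in Bmp4 between DEP and MP was -4.08 (16.9-fold, standard error 0.32, adjusted p = 6.65e-06). Chrd was higher in DEP by 2.41 (adjusted p = 3.4e-06), close to its value on day 2, and Fst was lower (-1.57, adjusted p = 0.00405). Bmp7 was now lower in DEP (-1.20, adjusted p = 0.0238), although this call was lost without any 1 of the 4 arrays (-1.10 to -1.29, adjusted p between 0.0843 and 0.137). Again 4 of 8 genes were called, where 3.08% of all probe sets were. Bmp2 was at -0.97 (adjusted p = 0.00509), just short of the fold threshold, and passed it without DEP day 4 replicate 2 (-1.29) or MP day 4 replicate 2 (-1.03). Bmp5 (-1.26, adjusted p = 0.0798) and Bambi (-0.83, adjusted p = 0.000526) missed one threshold each, and Bmp5 was called in a fit of only the 2 groups (adjusted p = 0.0242).

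The change of the DEP-to-MP difference from day 2 to day 4 was tested as an interaction in the same model. Bmp2 changed by -2.37 (standard error 0.26, adjusted p = 0.000685), Bmp4 by -2.60 (standard error 0.45, adjusted p = 0.0106) and Bmp7 by -2.11 (standard error 0.41, adjusted p = 0.0211). These 3 ligands of 8 genes were called, where 1.38% of all probe sets were. For Bmp2 the difference was 1.40 on day 2, which was called, and -0.97 on day 4, which was not. The difference in Chrd did not move detectably (0.02, 95% interval -0.51 to 0.55), nor did that in Fst (0.19, 95% interval -0.71 to 1.08). Without any 1 of the 8 arrays Bmp7 was no longer called (-2.02 to -2.21, adjusted p between 0.0646 and 0.085), and Bmp2 and Bmp4 kept their calls.

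**Figure D2:**
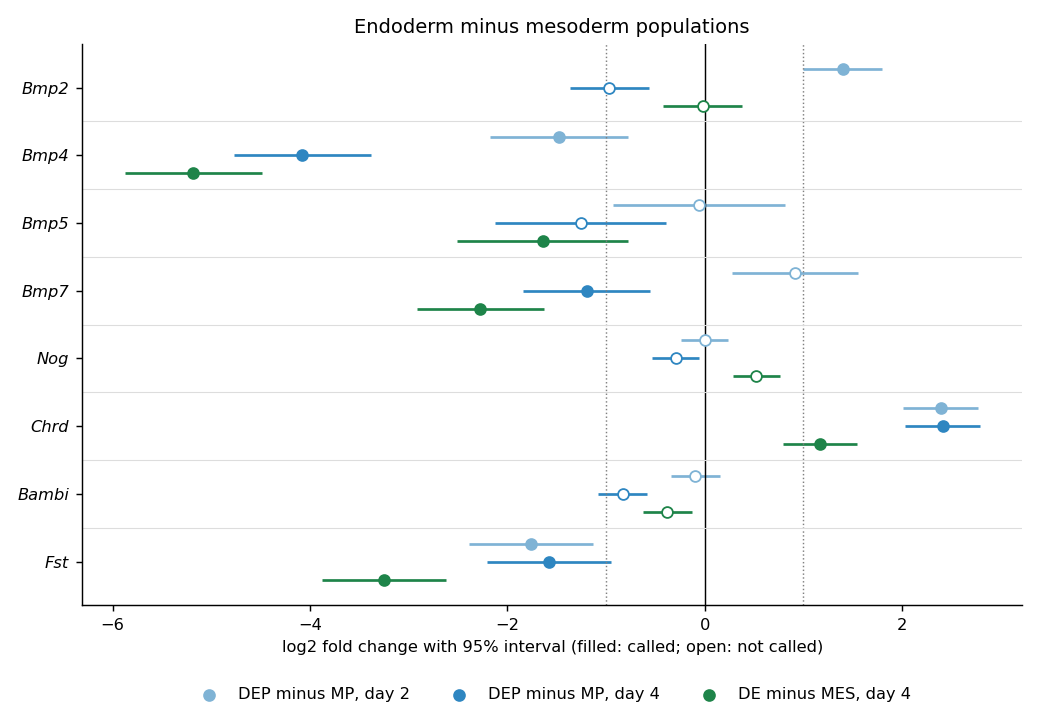
log2 fold change (x axis) of each gene in DEP minus MP on days 2 and 4 and in DE minus MES on day 4, with 95% intervals, dotted lines at -1 and 1, and filled points where the gene was called. Chrd is right of 0 and Bmp4 and Fst left of 0 in all 3 comparisons, and Bmp2 moves from 1.40 on day 2 to -0.97 on day 4.

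The step from progenitor to differentiated cells, which follows CD24, was compared within each lineage. From DEP to DE on day 2, Bmp2 rose by 1.27 (standard error 0.18, adjusted p = 0.000896), Chrd fell by 1.08 (adjusted p = 0.0018) and Fst fell by 1.82 (adjusted p = 0.00169), so that 3 of 8 genes were called against 2.8% of all probe sets. Bmp5 was at 1.08 with a wide error (standard error 0.40, adjusted p = 0.128), and was called without DE day 2 replicate 1 (1.93). The call of Chrd was lost without DE day 2 replicate 2 (-0.86). In a fit of only these 2 groups Chrd (adjusted p = 0.053) and Fst (adjusted p = 0.0709) were not called. On day 4 the same 3 genes were called in the same directions, Bmp2 at 2.15 (adjusted p = 8.41e-06), Chrd at -1.45 (adjusted p = 0.000102) and Fst at -1.66 (adjusted p = 0.00166), and Bmp7 fell too (-1.31, adjusted p = 0.00862). That made 4 of 8 genes, against 4.8% of all probe sets. Bmp7 lost its call without DE day 4 replicate 1 (-1.28, adjusted p = 0.0573) or DEP day 4 replicate 2 (-1.21, adjusted p = 0.065). Bambi (0.69, adjusted p = 0.00119) and Nog (0.67, adjusted p = 0.00103) stayed under the fold threshold.

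In the mesoderm, the step from MP to MES on day 4 brought a rise of Bmp2 (1.20, standard error 0.18, adjusted p = 0.00304) and no other call, 1 of 8 genes against 1.1% of all probe sets. The values of the others were between -0.23 for Bmp7 and 0.53 for Bmp5, with adjusted p of 0.384 or more. Fst was at 0.02 (95% interval -0.61 to 0.65) and Bmp4 at 0.29 (95% interval -0.40 to 0.99). Whether the 2 lineages differ in this step was tested on day 4 in a contrast added after the values were seen. The endoderm step was lower than the mesoderm step for Chrd (-1.24, standard error 0.24, adjusted p = 0.00544) and Fst (-1.68, standard error 0.41, adjusted p = 0.018), 2 of 8 genes against 6.04% of all probe sets. For Bmp2 the difference of the steps was 0.95 (adjusted p = 0.0322), under the fold threshold, and was called without DEP day 4 replicate 2 (1.27) and with the arrays re-centred on their median (1.02). The call of Chrd was lost without DEP day 4 replicate 1 (-0.99), and that of Fst without DE day 4 replicate 1 (-1.64), DEP day 4 replicate 2 (-1.63), MP day 4 replicate 1 (-1.55) or MES replicate 2 (-1.45). The gates differ between the lineages here, high against low CD24 in one and no against low CD24 in the other. The change of the endoderm step from day 2 to day 4 gave 0 calls among the 8 genes by limma, where 0.731% of all probe sets were called. At an unadjusted p below 0.05, 4 of the 8 passed, as did 11.1% of all probe sets. Leaving out 1 array called Bmp2 (1.21, without DEP day 4 replicate 2), Bmp5 (-1.79, without DE day 2 replicate 1) or Bmp7 (-1.85, without DE day 2 replicate 2).

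**Figure D3:**
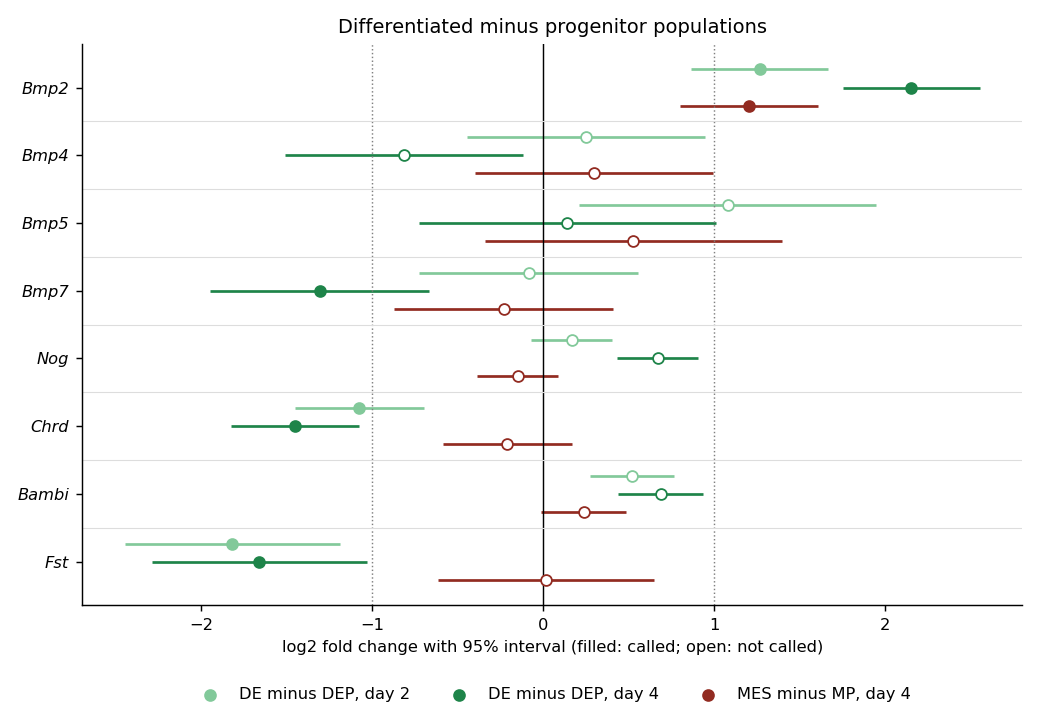
log2 fold change (x axis) of each gene from DEP to DE on days 2 and 4 and from MP to MES on day 4, with 95% intervals, dotted lines at -1 and 1, and filled points where the gene was called. Bmp2 is at 1.20 or more in all 3 steps, while Chrd and Fst are called in the endoderm steps and lie near 0 in the mesoderm step (-0.21 and 0.02).

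In MP all 4 ligands rose from day 2 to day 4. Bmp2 rose by 2.73 (standard error 0.18, adjusted p = 7.89e-06), Bmp4 by 2.64 (standard error 0.32, adjusted p = 0.000433), Bmp5 by 1.78 (adjusted p = 0.0203) and Bmp7 by 1.62 (adjusted p = 0.00659), while Fst fell by 1.61 (adjusted p = 0.00622). These were 5 of 8 genes, where 1.79% of all probe sets were called. The calls of Bmp2 and Bmp4 held without any 1 array. That of Bmp5 was lost without each of the 4 (1.52 to 2.04, adjusted p between 0.0515 and 0.127), and those of Bmp7 (1.59, adjusted p = 0.0547) and Fst (-1.47, adjusted p = 0.0632) without MP day 2 replicate 2, without which 2 of the 8 genes were called. Primordial germ cell markers, 7 genes, were on average at 7.85 and 7.96 in MP of day 2 and 8.89 and 8.99 in MP of day 4, and blood and endothelial markers, 12 genes, at 7.07 to 7.18 and 7.92 to 7.95. Their part in the rise of the ligands was not tested.

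DEP showed little change with the day. None of the 8 genes was called by limma, against 0.294% of all probe sets, and 1 passed at an unadjusted p below 0.05, as did 8.12% of all probe sets. This was Fst, at -1.42 (standard error 0.29, adjusted p = 0.0587). It was called with the 16000 probe sets of highest mean (adjusted p = 0.0371), with the replicate number as a block (adjusted p = 0.00469) and in a fit without the ES arrays (adjusted p = 0.0448). In DE, Bmp2 rose by 1.25 from day 2 to day 4 (adjusted p = 0.00209), Bmp7 fell by 1.71 (adjusted p = 0.00516) and Fst fell by 1.26 (adjusted p = 0.0239), 3 of 8 genes against 1.38% of all probe sets. Bmp4 was at -1.02 (adjusted p = 0.0871) and was called with the 16000 probe sets of highest mean (adjusted p = 0.0471). In a fit of only the 2 groups compared all 3 calls were lost (adjusted p = 0.0541 for Bmp2, 0.172 for Bmp7 and 0.15 for Fst). These values depend on the DE arrays of day 2, and Bmp7 was at -2.34 without replicate 2 and at -1.09 without replicate 1. Without replicate 1 Bmp4 (-1.59) and Bmp5 (-1.21) were called too, 5 genes in all, and Fst lost its call without replicate 2 (-0.86) or without either DE array of day 4 (-1.23 and -1.30).

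**Figure D4:**
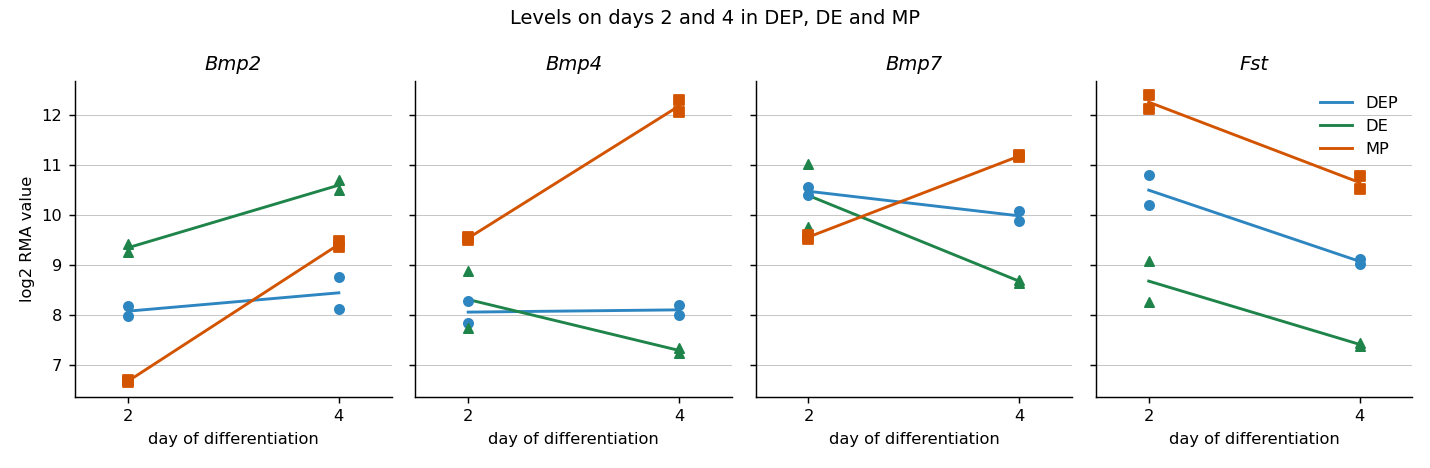
log2 RMA value (y axis) of Bmp2, Bmp4, Bmp7 and Fst against the day of differentiation (x axis) in DEP, DE and MP, with 1 point per array and lines through the means. The MP lines of the 3 ligands climb from day 2 to day 4, by 2.73, 2.64 and 1.62, the DEP lines stay within 0.49 for the ligands, and the Fst lines go down in all 3 populations, with a call in DE and MP.

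Compared with ES cells, which share the same 2 control arrays in every comparison, the sorted cells had more Bmp2 and mostly more Bmp7. Bmp2 was higher by 2.36 in DEP of day 2, 2.73 in DEP of day 4, 3.63 in DE of day 2, 4.88 in DE of day 4, 3.70 in MP of day 4 and 4.90 in MES (29.9-fold, adjusted p = 1.27e-08), and at 0.96 in MP of day 2, just under the threshold, which it passed without ES replicate 2 (1.13). Bmp7 rose in all groups but DE of day 4, where it was at 0.87 (adjusted p = 0.0418) and was called without ES replicate 1 (1.08), by between 1.76 in MP of day 2 and 3.38 in MP of day 4. Bmp5 rose in MP of day 4 (2.04), in MES (2.56) and in DE of day 2 (1.28, adjusted p = 0.0341). The last call was lost without DE day 2 replicate 2 (0.43), without ES replicate 1 (1.41) or without ES replicate 2 (1.15), and in a fit of only the 2 groups (adjusted p = 0.221).

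Bmp4 was lower than in ES in 5 of the 7 sorted groups, at -3.63 and -3.59 in DEP of days 2 and 4, -3.38 and -4.40 in DE and -2.15 in MP of day 2, and was at 0.49 in MP of day 4 and 0.78 in MES, where it was not called. In the same comparisons 13 to 17 of the 21 fibroblast markers were lower than in ES. Between the 2 ES arrays, replicate 1 had the higher mean of the fibroblast markers (9.97 against 9.59) and the lower mean of 10 ES cell markers (10.83 against 11.39). It also had the lower Bmp4 (11.32 against 12.07), Fst (9.61 against 10.22), Bmp2 (5.56 against 5.88), Chrd (7.21 against 7.37) and Bambi (8.61 against 8.65). Bmp7 (8.02 against 7.60), Bmp5 (6.18 against 5.92) and Nog (7.38 against 7.23) were at the greater value on replicate 1. The part of feeder RNA in the values of these genes was not tested.

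Of the antagonists, Chrd rose from ES in all 4 endoderm groups, by 2.78 and 2.61 in DEP of days 2 and 4 and by 1.71 and 1.16 in DE, and was between -0.01 and 0.39 in the mesoderm groups, where it was not called. Bambi rose in DE of day 4 (1.05), MP of day 4 (1.19) and MES (1.43). Fst rose in MP of day 2 (2.35, adjusted p = 0.00018) and fell in DE of day 4 (-2.49, adjusted p = 4.38e-05) and of day 2 (-1.23, adjusted p = 0.00834), the latter not without ES replicate 2 (-0.92) or DE day 2 replicate 1 (-0.82), nor in a fit of only the 2 groups (adjusted p = 0.0987). In DEP of day 4 Fst was at -0.83 and was called without ES replicate 1 (-1.14). Nog was not called in any group and had its highest value in DE of day 4 (0.60, adjusted p = 0.00118). In all, 4 of 8 genes were called in DEP of day 2 (3.64% of all probe sets), 6 in DE of day 2 (6.65%), 4 in DEP of day 4 (4.51%), 5 in DE of day 4 (8.76%), 3 in MP of day 2 (4.1%), 4 in MP of day 4 (5.46%) and 4 in MES (5.67%).

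The rest of the pathway was described by lists of genes. Over all probe sets, 0.903% were called in DEP against MP on day 2, 3.08% on day 4 and 5.88% in DE against MES. Of 14 further BMP and GDF ligands none was called between the lineages, in DEP against MP on day 2 or day 4 or in DE against MES, and the medians of the list were 0.03, -0.02 and -0.06. Gdf3, a relative of Nodal, fell from DEP to DE (-1.27 on day 2 and -1.42 on day 4) and from MP to MES (-1.24). Of 18 further extracellular antagonists and modulators, Cer1, which binds and blocks Nodal, BMP and Wnt proteins, was higher in DEP than in MP (3.28 on day 2 and 5.04 on day 4) and in DE than in MES (6.82, adjusted p = 1.94e-08). Twsg1, which binds BMPs together with chordin, was higher in DE than in MES (1.18), and Bmper, a secreted BMP-binding protein, was lower in DEP than in MP on day 4 (-1.07) and in DE than in MES (-1.03). Tll1, a protease that cuts chordin, was lower in DE than in MES (-1.84, adjusted p = 1.78e-06) and was the one of 3 chordin proteases called there.

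On the receiving side few genes were called, as among all probe sets (0.903% and 3.08% in DEP against MP on days 2 and 4, 5.88% in DE against MES). Of 10 receptors and co-receptors 0 were called in DEP against MP on either day, and in DE against MES it was Eng, a co-receptor of endothelial cells, that was lower (-1.77). In DEP against MP on day 4 Eng was at -0.90 (adjusted p = 0.000336), under the fold threshold. None of 12 Smads and intracellular regulators was called in these 3 comparisons, where the medians of the list were 0.01, 0.14 and 0.01. Smad1, a BMP effector, rose with the step to differentiated cells in both lineages, by 1.83 and 1.20 from DEP to DE on days 2 and 4 and by 1.16 from MP to MES. Rgma, a BMP co-receptor, rose from DEP to DE (1.34 and 1.04).

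BMP target genes were lower in the endoderm cells, 5 of 15 in DEP against MP on day 2 (median of the list -0.59), 10 of 15 on day 4 (median -1.27) and 8 of 15 in DE against MES (median -1.23), and none was higher, with medians over all probe sets of -0.01, 0.01 and 0.00. Id1 and Id2, which hold back basic helix–loop–helix factors, were at -2.47 and -2.72 in DEP on day 2, Msx2, a homeobox factor, was at -3.36 on day 4 and Hand1, a factor of lateral mesoderm, at -4.24 in DE against MES. Several of these, such as Hand1 and Cdx2, are also mesoderm genes. From DEP to DE, 2 of the 15 were higher and 1 lower on day 2 (median of the list 0.16). On day 4, 1 was higher and 1 lower (median 0.18), where 2.8% and 4.8% of all probe sets were called on the 2 days. Id1 rose in this step (1.21 on day 2 and 1.77 on day 4), while Smad7, an inhibitory Smad, fell (-1.94 and -1.27). Of 14 genes of activin and Nodal signalling, 2 were higher in DEP than in MP on day 2, 3 on day 4 and 4 in DE than in MES, the last with 2 lower. Lefty1, a Nodal antagonist, was at 4.61, 1.54 and 4.41 in these comparisons. The activin A added also differed between the cultures.

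**Figure D5:**
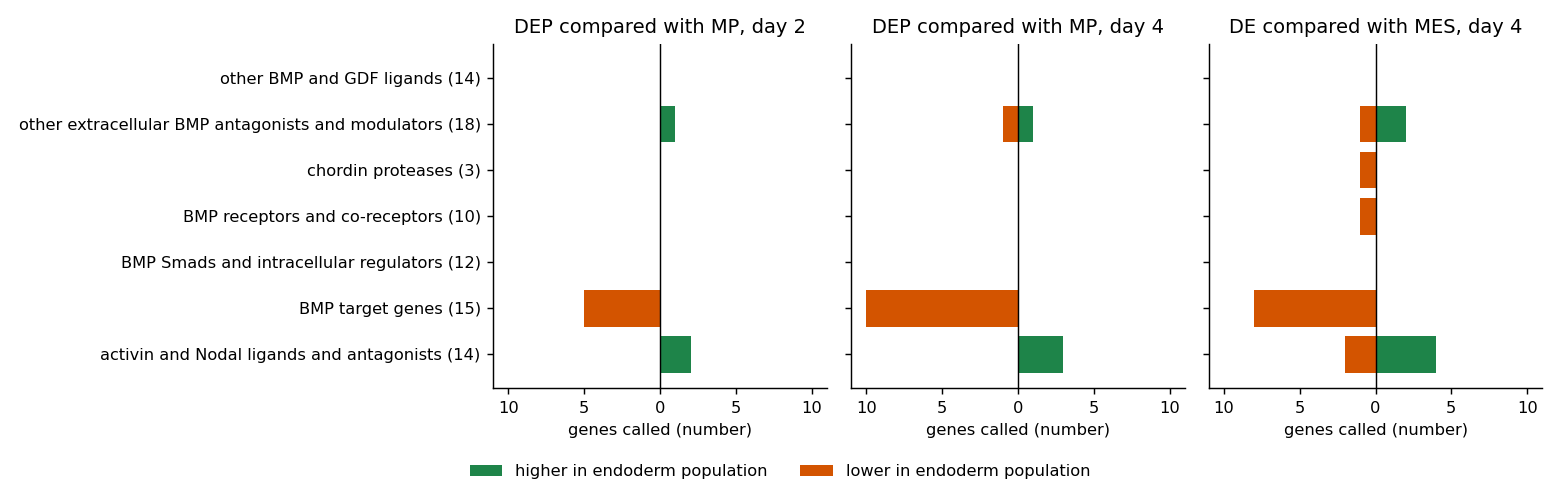
Number of genes called (x axis) as higher or lower in the endoderm population, for 7 lists of pathway genes with the number tested in parentheses, in DEP compared with MP on days 2 and 4 and in DE compared with MES. The BMP target genes are called lower, 5, 10 and 8 of 15, and the lists of further ligands and of Smads have no call. Of all probe sets, 0.903%, 3.08% and 5.88% are called in these comparisons.

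The genes most like each of the 8 in pattern were taken by Pearson's r over the 8 group means, among 3784 other genes whose group means spanned more than 1. For Bmp4 they were Pdgfrb, the PDGF receptor of mesenchymal cells (r = 0.98), Runx1t1 (0.97) and Zeb1, a repressor of epithelial genes (0.97). Pdgfrb is also among the fibroblast markers followed above. Bmp2 was closest to Cdc42ep1 (0.98), Selenon (0.98) and Zbtb16 (0.97), and Chrd to Foxj1, a factor of ciliated cells (0.97), Wnk2 (0.97) and Jazf1 (0.95). Bmp5 and Bambi shared Pdlim4 among their 3 (0.95 and 0.96), with Tbx2 and Plxnd1 beside Bmp5 and Rin3 and Zfp516 beside Bambi. Fst was closest to Mab21l2 (0.96), Tex15 (0.95) and Kdm2b (0.94), and Bmp7 to Mtss2 (0.95), Cand2 (0.94) and H1f10 (0.94). Among the 8 genes themselves Bmp5 and Bambi were the most alike (0.92), then Bmp2 and Bambi (0.89), and Bmp4 and Chrd the most opposed (-0.80). These values describe 8 points that share arrays and normalization.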

How the data were processed

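Gene expression was measured in total RNA of 2 replicates in each of 8 groups with Affymetrix arrays (Mouse Gene ST 1.0). The authors normalized the arrays by RMA (oligo 1.48.0, per the submitters' processing notes) and deposited log2 values for 35556 probe sets, which were used as given. RMA gives all arrays one distribution, so values are relative and a shift shared by most genes would not be seen (array medians 7.42 to 7.49, replicate correlations 0.987 to 0.994 across probe sets).

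The 32000 probe sets of highest mean were kept, of which 20427 had 1 gene symbol, 1400 several and 10173 none. A limma 3.58.1 model in R 4.3.3 was fitted with 1 mean per group over all 16 arrays, with 8 residual degrees of freedom, empirical Bayes moderation and Benjamini–Hochberg adjustment over the 32000. The fit was tested on simulated data. Intervals are 95% intervals from the moderated fit.

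All 8 genes matched RefSeq by Entrez identifier. Of each pathway list, up to 4 called genes of largest absolute fold change per comparison were eligible for naming, and for each of the 8 genes whose group means spanned more than 1, the 3 genes of highest correlation. The value of Eng under the fold threshold was added after it was seen. The 8 genes and all lists were chosen with earlier results of these data known. The comparison of the endoderm step with the mesoderm step on day 4 and the fit without the ES arrays were added after the values were seen. Alternatives concerned the filter, the averaging of a gene's probe sets, the moderation, the thresholds and the centring. Others concerned the arrays in the fit, the replicate number as a block and leaving out each array.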

Additional observations from a re-analysis of the deposited data

Results flagged for a closer look

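The difference between DEP and MP changed from day 2 to day 4 for 3 ligands, as tested by the interaction in the limma model over 2 arrays per group. The change was -2.37 for Bmp2 (adjusted p = 0.000685), -2.60 for Bmp4 (adjusted p = 0.0106) and -2.11 for Bmp7 (adjusted p = 0.0211). The 3 genes rose from day 2 to day 4 in MP and were at 0.37, 0.05 and -0.49 in DEP.

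On day 4 the step from DEP to DE differed from the step from MP to MES for 2 antagonists in the limma model, in a comparison added after the values were seen. The difference was -1.24 for Chrd (adjusted p = 0.00544) and -1.68 for Fst (adjusted p = 0.018). With each of the 8 arrays left out in turn, Chrd lost its call in 1 case and Fst in 4.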

How the results depend on the processing

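Of 2106 recomputed gene values under 26 settings, 1986 stayed called or stayed not called, 85 lost a call and 35 gained one. Among those that stayed are all values of the setting that averaged the probe sets of a gene. That setting could not change a value, since each gene had 1 probe set. Of the values called in the main fit 0 reversed, and the direction of values not called was not followed. Testing against a log2 fold change of 1 (treat) lowered the number of genes called most, from 5 to 3 in DE against MES, from 4 to 1 and from 4 to 2 in DEP against MP on days 2 and 4, from 3 to 0 and from 4 to 1 in DE against DEP on days 2 and 4, from 1 to 0 in MES against MP, from 3 to 0 in DE and from 5 to 2 in MP over time, from 5 to 3, 3 to 1, 4 to 2 and 4 to 2 in DE of day 4, MP of day 2, MP of day 4 and MES against ES, and from 3 to 0 and from 2 to 0 in the DEP-to-MP interaction and the comparison of the 2 steps. A fit of only the groups compared left 1 call in DE against DEP on day 2 and 0 in DE over time, and added Bmp5 to DEP against MP on day 4 (5 calls). An adjusted p alone gave 5 calls in MP of day 2 against ES and 4 in the comparison of the 2 steps. In DEP over time, 1 gene (Fst) was called with 16000 probe sets, where Bmp5 and Nog were not tested, in the fit without the ES arrays, and with the replicate block. Leaving out 1 array gave 2 to 3 calls in DEP against MP on day 2, 2 to 4 in DE against DEP on day 2, 2 to 5 in DE and 2 to 4 in MP over time, 2 to 2 in the DEP-to-MP interaction, 0 to 1 in the change of the endoderm step and 1 to 2 in the comparison of the 2 steps.

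The replicate numbers did not meet the rule for pairing, a correlation above 0.1 in every pair (deviations of same-numbered arrays correlated between -0.204 and 0.246 over 28 pairs of groups, median 0.0439, with 8 above 0.1). The fit with the replicate number as a block lost 0 of 64 calls and gained 1, Fst in DEP over time (-1.42, adjusted p = 0.00469). Fst was higher on replicate 2 than on replicate 1 in all 8 groups, by 0.08 to 0.82. With 2 arrays per group, a difference near the fold threshold could not be settled.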
